A study of Homo sapiens with 92 samples.

Results

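The HOX cluster genes are the homeobox genes of the 4 human clusters, HOXA on chromosome 7, HOXB on chromosome 17, HOXC on chromosome 12 and HOXD on chromosome 2. Members were the genes whose symbol is HOX, a cluster letter and a paralogue number. The deposited counts hold 27 of them among 48904 genes kept, with 8 in HOXA, 6 in HOXB, 5 in HOXC and 8 in HOXD. RefSeq lists 39 such genes. The other 12 (HOXA4, HOXA5, HOXA6, HOXB4, HOXB5, HOXB8, HOXB9, HOXC5, HOXC6, HOXC8, HOXC9 and HOXD4) were not analysed here.

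HOX genes encode homeodomain transcription factors that give cells of the body axis their position. Within a cluster the low-numbered, anterior genes lie at one end and the high-numbered, posterior genes at the other, and the order along the DNA matches the order of their domains in the embryo. Retinoic acid switches on anterior members, Polycomb complexes keep the genes silent, MLL complexes keep them active, and PBX and MEIS proteins bind DNA beside HOX proteins. Cohesin, which NIPBL loads on chromatin and which extrudes DNA loops, takes part in contacts between HOX genes and distant enhancers.

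New RNA was measured by SLAM-seq in 92 libraries that fall into 32 groups of 2 to 4. Cells took up 4-thiouridine (4sU), at 100 µM in the RPE-1 libraries described below and with no dose given here for the others. It is read as T-to-C changes, so reads with such a change (converted reads) come from RNA made during the label. All groups, DMSO controls included, carry the genotype mGreenLantern-P2A-FKBP12(F36V)-NIPBL, a degron through which dTAGV-1 brings the protein to degradation, and DMSO is the vehicle. Of these, 84 libraries are hTERT RPE-1, an immortalised retinal pigment epithelial line, as a single clone (NIPBL-D7) that was synchronised with thymidine and arrested in mitosis with nocodazole (20 ng/ml, 120 min). In the mitosis series dTAGV-1 or DMSO was present during the 120 min arrest and after release. The times were 0, 30, 60, 90 and 120 min and 4, 6 and 8 h. In the release series the compound was given only after release, for 30, 60, 90 or 120 min. The label lasted 15 min, and at 120 min also 120 min. The other libraries are 4 of neurons and 4 of ventricular cardiomyocytes made from WTC11 iNgn2 human induced pluripotent stem cells, with DMSO or dTAGV-1 for 4 h and 120 min of 4sU, 2 libraries per arm. Their cell line field names hTERT RPE-1, while titles and growth protocols give the WTC11 cells, and groups were taken from the titles.

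Markers bore on these names. In cardiomyocyte libraries 14 of 16 cardiomyocyte markers reached 1 CPM (converted reads per 1e6 converted reads), with MYL2 at 0, and in neuron libraries 14 of 16 neuronal markers did, with TUBB3 at 0.656 CPM. In RPE-1 libraries 4 of 12 retinal pigment epithelium markers did, and RPE65 had 10 reads. More of these 12 did in cardiomyocytes (8) and in neurons (6), so at this level they do not set RPE-1 apart. Markers of other types also reached 1 CPM, so this mark alone does not settle a type. In cardiomyocytes 10 of 16 neuronal, 11 of 11 fibroblast and smooth muscle, 9 of 9 endothelium and endoderm and 4 of 8 pluripotency markers did. In neurons 8 of 9 neural progenitor, 11 of 11 fibroblast and smooth muscle, 4 of 8 pluripotency and 4 of 16 cardiomyocyte markers did. In RPE-1 5 of 16 neuronal, 5 of 11 fibroblast and smooth muscle and 2 of 16 cardiomyocyte markers did. With MYL2 at 0, the markers do not settle the subtype, ventricular. Totals ran from 0.419 to 35.4 M converted reads and from 10.7 to 114 M reads of all kinds (M stands for 1e6 reads). NIPBL RNA does not test a degron that acts on protein, and its fitted log2 change lay between -0.02 and 0.36. In the mitosis series 4 RPE-1 libraries stood apart, since they list 38350 to 45699 genes and the other 80 list 25704 to 37939. They are DMSO replicate 4 and dTAGV-1 replicate 4 at 0 min, DMSO replicate 2 at 90 min and dTAGV-1 replicate 4 at 120 min, and they hold 32.9% of all HOX reads of RPE-1 but 8.94% of converted HOX reads. Labels do not say that libraries of a group came from separate cultures, so p-values measure the spread between libraries, which may be technical. In bulk samples, fewer cells of a type and less RNA per cell cannot be told apart.

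**Figure D1:**
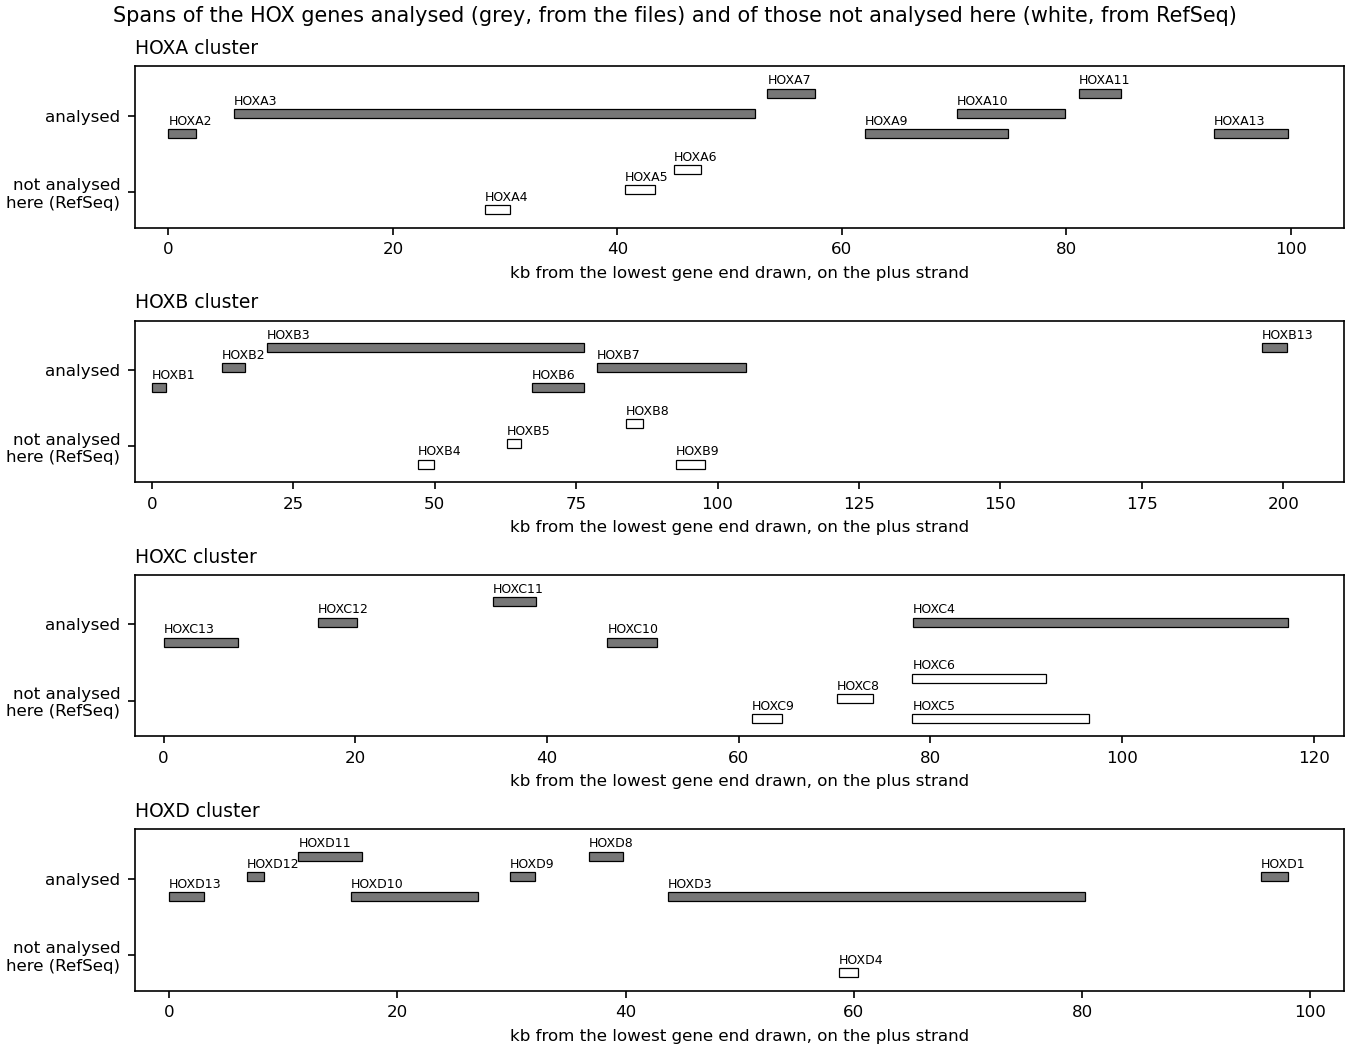
Spans of HOX genes along each cluster, in kb from the lowest gene end drawn, on the plus strand. Grey bars are genes analysed and white bars the 12 not analysed here, each inside the span of a longer same-strand gene (for HOXC6, HOXC8 and HOXC9 this is RP11-834C11.12, which is not drawn).

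The gene models shape what each count holds. Each of the 12 lies to over 99% inside a longer same-strand gene, such as HOXB4 and HOXB5 in HOXB3. Across autosomal RefSeq protein-coding genes, 94 of 545 inside a same-strand gene (17.2%) were among the genes kept here, against 13400 of 13816 genes not contained in another (97.0%). HOXB3 (chr17:48548870-48604912, minus strand, hg38) spans 56043 bases, which also cover HOXB6. HOXB6 keeps 80 bases of its own, had no converted read in any cell type, and its level is uncertain. HOXA9 shares part of its span with HOXA10, and HOXD10 with HOXD11, and HOXC4 and HOXC10 share 46.0% and 86.4% of their RefSeq spans with the same-strand RP11-834C11.12, so these counts are uncertain too. Whether the counting used strand is not given in the sources used here. HOXB2 and HOXB3 overlap HOXB-AS1, and HOXA13 overlaps HOTTIP, so reads of these pairs may not be told apart.

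Promoter sequences are shown for HOXA2 and HOXC4, the genes with the highest neuronal level per kb and the largest neuronal read count. They come from RefSeq (GRCh38.p14) and run from 250 bases before to 50 after the start, 5′ to 3′ on the gene's strand. The table matched 16 of the 27 members by symbol, with 23 windows. Capitals mark matches to TGATNNAT, the core that PBX and HOX proteins bind together, and to CCAAT, on either strand (ATTGG is CCAAT on the other strand).
HOXA2, chr7:27102634-27102933, minus strand: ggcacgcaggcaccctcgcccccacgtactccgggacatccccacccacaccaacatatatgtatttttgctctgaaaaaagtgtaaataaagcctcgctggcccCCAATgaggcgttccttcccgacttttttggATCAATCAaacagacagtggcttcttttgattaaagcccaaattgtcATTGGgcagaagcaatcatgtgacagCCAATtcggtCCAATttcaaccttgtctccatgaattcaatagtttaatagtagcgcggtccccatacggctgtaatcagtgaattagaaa
HOXC4, chr12:54016638-54016937, plus strand: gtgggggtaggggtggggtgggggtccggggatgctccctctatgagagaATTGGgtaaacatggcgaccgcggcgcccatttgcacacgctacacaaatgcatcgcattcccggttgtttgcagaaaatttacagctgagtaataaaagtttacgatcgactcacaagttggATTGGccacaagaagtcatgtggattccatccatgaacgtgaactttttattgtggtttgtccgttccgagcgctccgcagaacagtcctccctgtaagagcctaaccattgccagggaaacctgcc
The HOXA2 window holds 1 TGATNNAT match, 114 bases upstream of the start and on the other strand, and 4 of CCAAT. The HOXC4 window holds 2 of CCAAT and no TGATNNAT. RefSeq gives HOXC5 and HOXC6 the same start as HOXC4, so this window is not of HOXC4 alone. Whether the RNA counted for HOXC4 starts there was not tested. TGATNNAT is in 3 of these 23 windows (those of HOXA2, HOXB1 and HOXD11) and in 7.40% of 35116 promoters of the same length. CCAAT is in 14 of 23 and in 34.6% of all. AGGTCA, the repeat unit of retinoic acid receptor sites, is in 0 of 23 and in 13.8% of all, and TATAAA is in 5 of 23 and 11.5%. No marked match overlaps another in the windows shown, and several of the 23 windows share bases or belong to 1 gene. The 23 windows had a median of 22 CpG against 14 and a median GC content of 58.0% against 58.7%.

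HOX transcription was low in RPE-1 and higher in both stem-cell-derived types. The 27 genes together had 302 converted reads in 84 RPE-1 libraries, 0.807 CPM pooled, with single libraries from 0 to 7.20 CPM (median 0.664) and 12 libraries at 0. Cardiomyocytes had 1330 converted HOX reads in 4 libraries, 40.0 CPM pooled (31.2 to 53.4). Neurons had 1068, 41.2 CPM pooled (33.6 to 48.2). With the 120 min label, RPE-1 had 126 converted HOX reads and 0.702 CPM pooled (0.300 to 0.987). So every stem-cell-derived library lay above every RPE-1 library. Without the 4 RPE-1 libraries that stood apart, the RPE-1 level was 0.748 CPM pooled (0 to 7.16). Cell line, synchronisation and batch differ between these types, and no test was run.

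**Figure D2:**
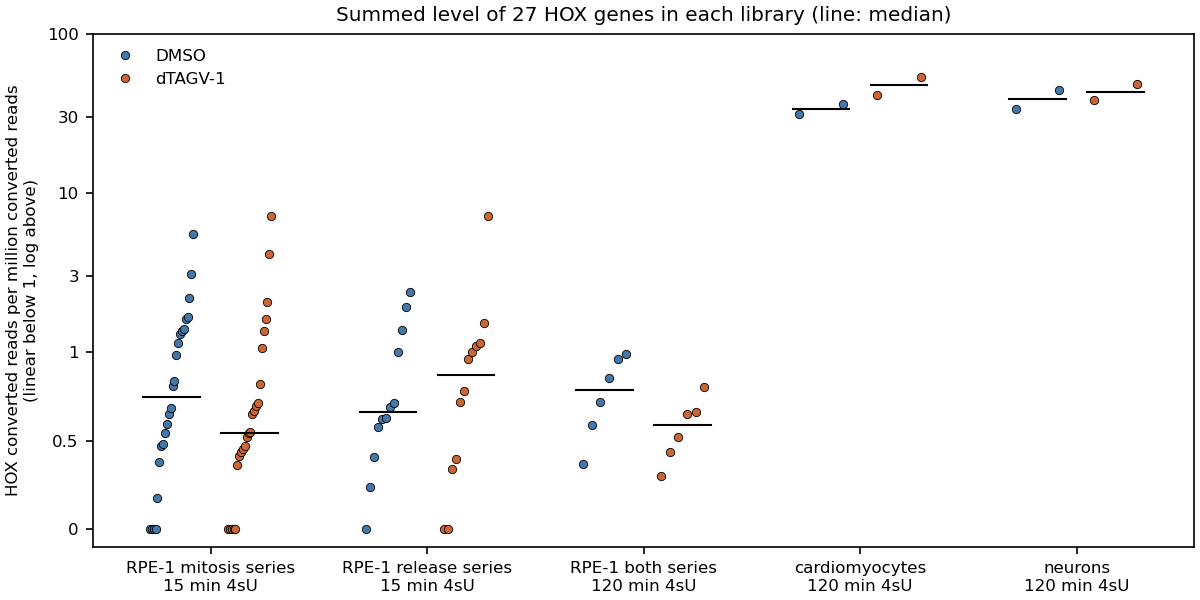
Converted reads of the 27 HOX genes summed, in CPM, in each library, on an axis that is linear below 1 and logarithmic above. Blue points are DMSO, orange dTAGV-1, and lines are medians. Cardiomyocyte and neuron libraries lie between 31.2 and 53.4, and RPE-1 libraries between 0 and 7.20.

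Which members were measured differed by cell type. At least 1 converted read was seen for 21 of 27 members in RPE-1, 16 in cardiomyocytes and 14 in neurons, and at least 10 for 3, 6 and 5. Those with at least 10 included HOXA3, HOXB3 and HOXB7 in RPE-1, HOXA3, HOXA13, HOXB2, HOXB3, HOXB7 and HOXC4 in cardiomyocytes, and HOXA2, HOXB2, HOXB3 and HOXC4 in neurons. HOXA9, HOXA10 and HOXB6 had none in any cell type. A count of 0 allows 3 reads over the type's libraries, or 0.00802 CPM in RPE-1, 0.0901 in cardiomyocytes and 0.116 in neurons, for counting error only. Such reads carry no molecular identifiers.

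By cluster, HOXB led in RPE-1 and cardiomyocytes, and HOXC in neurons. Of converted HOX reads in RPE-1, 79.1% were in HOXB, 10.6% in HOXD, 5.30% in HOXA and 4.97% in HOXC. In cardiomyocytes the shares were 93.5% in HOXB, 3.98% in HOXA, 2.11% in HOXC and 0.376% in HOXD. In neurons they were 47.8% in HOXC, 26.9% in HOXB, 23.7% in HOXA and 1.59% in HOXD. A single gene held most of each leading share: HOXB3 had 194 of 302 reads in RPE-1 (64.2%) and 824 of 1330 in cardiomyocytes (62.0%), and HOXC4 had 510 of 1068 in neurons (47.8%). These counts follow gene length as well as level, since HOXB3 and HOXC4 are long and hold other members.

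By position, anterior genes (paralogues 1 to 3, 8 members) held 76.5% of converted HOX reads in RPE-1, 95.4% in cardiomyocytes and 50.4% in neurons. Central genes (4 to 8, 5 members) held 14.2%, 2.33% and 48.5%. Posterior genes (9 to 13, 14 members) held 9.27%, 2.26% and 1.12%. In neurons the central share was HOXC4 almost alone, and posterior transcription was at the edge of detection, 12 reads in 4 libraries. HOXA13 had 10 of the 30 posterior reads in cardiomyocytes. Positions are not fully apart in these counts. The spans of anterior HOXB3, HOXA3 and HOXD3 cover central HOXB4, HOXB5, HOXA4, HOXA5, HOXA6 and HOXD4, and central HOXB7 covers posterior HOXB9. HOXB3 held 194 of 231 anterior reads in RPE-1, 824 of 1269 in cardiomyocytes and 58 of 538 in neurons. So anterior shares may hold central transcription.

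Levels between genes can be compared per kb of span. In neurons the order of the members given was HOXA2 (3.15 converted CPM per kb, libraries 2.16 to 3.67), HOXB2 (2.13, 1.77 to 2.43), HOXC4 (0.503, 0.449 to 0.597), HOXD8 (0.0899), HOXD13 (0.0759) and HOXB3 (0.0399). The ranges of HOXA2 and HOXB2 overlap, and that of HOXC4 lies below both. In cardiomyocytes it was HOXB2 (2.95, 2.16 to 3.89), HOXB3 (0.442, 0.323 to 0.626) and HOXA13 (0.0455, 0 to 0.108), and the ranges of the first and second do not overlap. HOXC13 reached 0.0348 and HOXD13 0.0197 there, the highest of their clusters. In RPE-1 HOXD12 (0.0164, 9 reads in 9 libraries) and HOXB3 (0.00925, 194 reads in 55 libraries) came first, with HOXA2 (0.00217) leading HOXA and HOXC11 (0.00177) leading HOXC, each on few reads.

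The share of a gene's reads that were converted also varied. In cardiomyocytes it was 41.9% to 44.1% for HOXB2 and 35.2% to 38.1% for HOXB3, against library medians of 29.0% to 31.2% over genes with at least 100 reads. In neurons it was 25.8% to 33.3% for HOXB2 and 17.6% to 20.7% for HOXC4, against medians of 21.4% to 25.6%. HOXB2 lay above its library's median in each of these 8 libraries and HOXC4 below it in each of 4.

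**Figure D3:**
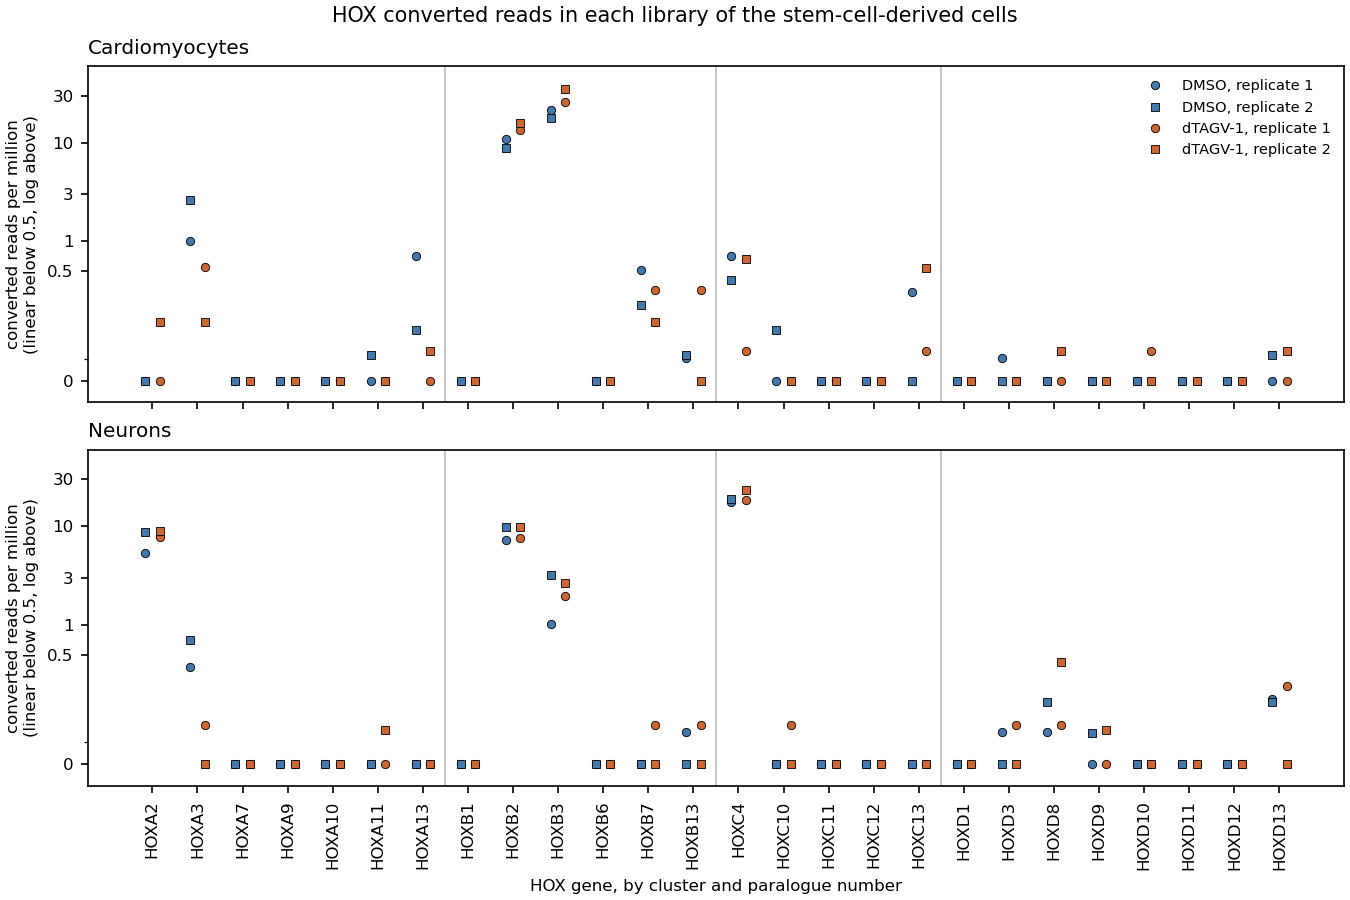
Converted CPM of HOX genes in the 4 cardiomyocyte and 4 neuron libraries, ordered by cluster and paralogue number, on an axis linear below 0.5 and logarithmic above. HOXB2 and HOXB3 lie highest in cardiomyocytes, and HOXA2, HOXB2 and HOXC4 in neurons.

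Neurons and cardiomyocytes differed in which members were on. With DMSO, HOXC4, a central gene, had 17.6 and 19.1 CPM in neurons against 0.712 and 0.461 in cardiomyocytes. Its log2 difference was 4.83 ± 0.32 (SE, adjusted p = 1.96e-07, edgeR's quasi-likelihood test with Benjamini-Hochberg adjustment). HOXB3, an anterior gene expressed in the hindbrain of the embryo, was 1.03 and 3.24 CPM in neurons against 21.8 and 18.1, a log2 difference of -3.28 ± 0.33 (adjusted p = 6.1e-06, same test). HOXA2, which patterns hindbrain and branchial arches, had 99 reads in neurons and 0 in cardiomyocytes, at least 44.0-fold higher (adjusted p = 1.07e-05, edgeR). For HOXB2 the values overlapped, 7.23 and 9.86 against 11.0 and 8.87 CPM, and the log2 difference was -0.30 ± 0.22 (adjusted p = 0.268). So 4 of the 5 tested members were called, 3 higher and 1 lower in neurons, against 53.7% of all 18644 tested genes called. The other 22 members did not pass the filter on low counts.

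The treated libraries share the fit, scaling and estimate of spread with the DMSO libraries, so they are no independent check. With dTAGV-1 the directions were the same, 51.7% of tested genes were called and all 5 members were. HOXB2 was then also lower in neurons, by a log2 difference of -0.78 ± 0.22 (adjusted p = 0.0104, edgeR). HOXB3 differed by -3.76 ± 0.33 (adjusted p = 2.11e-06) and HOXC4 by 5.59 ± 0.36 (adjusted p = 1.74e-07). HOXA2 had a ratio of 62.4 (95% counting interval 16.9 to 523, 102 reads against 2). With no filter on low counts, 7 members were called with DMSO, adding HOXA3, HOXA13 and HOXB7 as lower in neurons.

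Of the noncoding RNA genes inside the clusters, 2 of 17 passed the filter. Of these HOXB-AS1 was lower in neurons (log2 -0.79 ± 0.29, adjusted p = 0.0374, edgeR). HOXB3, which it overlaps, was also lower there, and their counts may share reads as stated above.

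In cardiomyocytes no HOX gene was called with dTAGV-1, and the 2 leading HOXB members had higher values in both treated libraries than in both controls. HOXB2 was 11.0 and 8.87 CPM with DMSO and 13.4 and 15.9 with dTAGV-1. HOXB3 was 21.8 and 18.1 with DMSO and 26.2 and 35.1 with dTAGV-1. For both genes the arms did not overlap. With 2 libraries per arm this can arise by order alone, and its share over all genes is not given here. The fitted log2 change was 0.51 ± 0.20 for HOXB2 (adjusted p = 0.220) and 0.57 ± 0.22 for HOXB3 (adjusted p = 0.225, edgeR for both), and neither passed the threshold. HOXC4 was 0.712 and 0.461 CPM with DMSO and 0.137 and 0.670 with dTAGV-1, with a log2 change of -0.58 ± 0.66 (adjusted p = 0.758). Of the 5 tested members 0 were called, against 4.83% of all tested genes, 2 had an unadjusted p under 0.05, and DESeq2 called 0 of the 4 members it gave an adjusted p. HOXA2 was under the floor of 3 reads in both arms.

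HOXA3 and HOXA13 went the other way in cardiomyocytes but were too low to be tested there. HOXA3 had 10 and 23 converted reads (1.02 and 2.65 CPM) with DMSO and 4 and 2 (0.549 and 0.268 CPM) with dTAGV-1, a ratio of 0.228 with a counting interval of 0.0782 to 0.552. HOXA13 had 7 and 2 reads with DMSO and 0 and 1 with dTAGV-1. For both genes the arms do not overlap, with the same limit of 2 libraries per arm. With no filter on low counts HOXA3 was called lower (log2 -2.20, adjusted p = 0.00570, edgeR), while DESeq2 gave it an unadjusted p of 0.0568. When all reads were counted its change was -0.94 (adjusted p = 0.567). In neurons HOXA3 had 3 and 5 reads with DMSO and 1 and 0 with dTAGV-1.

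Summed by cluster, cardiomyocyte HOXA was 1.83 and 2.99 CPM with DMSO and 0.549 and 0.670 with dTAGV-1. HOXB was 33.3 and 27.4 with DMSO and 40.5 and 51.3 with dTAGV-1. HOXC was 1.12 and 0.691 against 0.274 and 1.21, and HOXD 0.102 and 0.115 against 0.137 and 0.268. The arms of HOXA, HOXB and HOXD do not overlap, with HOXD on 2 and 3 reads, and those of HOXC overlap. As above, 2 libraries per arm can part by order alone. By position, anterior genes were 33.9 and 29.6 CPM against 40.2 and 51.6, central genes 1.22 and 0.806 against 0.549 and 1.07, and posterior genes 1.22 and 0.806 against 0.686 and 0.804. The HOXB and anterior sums rest on HOXB2 and HOXB3, the HOXA sum on HOXA3 and HOXA13, and no test was made on a sum. As stated above, the anterior sums may hold central transcription.

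Summed marker levels of several cell types differed between the arms of the cardiomyocyte libraries, with no test on a sum. The 11 fibroblast and smooth muscle markers, all at 1 CPM or more, summed to 699 to 709 CPM with DMSO and 446 to 488 with dTAGV-1, with 3 called lower and 1 higher (edgeR). The 9 endothelium and endoderm markers summed to 367 to 378 and 120 to 234, with 2 called lower. Cardiomyocyte markers summed to 4947 to 5220 with DMSO and 5606 to 6051 with dTAGV-1, but 3 of 14 tested were called lower and 2 higher, with a median log2 change of 0.015, and RYR2 alone had 2403 CPM over the 4 libraries. Neuronal markers summed to 268 to 404 and 214 to 251 (3 of 14 called lower), and neural progenitor markers to 405 to 422 and 309 to 368 (1 of 8 called lower). The part of these differences in the HOX values was not tested.

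In neurons the arms of all 5 tested members overlapped. HOXC4 was 17.6 and 19.1 CPM with DMSO and 18.7 and 23.3 with dTAGV-1 (log2 0.18 ± 0.20). HOXA2 was 5.31 and 8.87 against 7.83 and 9.02 (0.23 ± 0.31), and HOXB2 was 7.23 and 9.86 against 7.65 and 9.95 (0.03 ± 0.23). For these 3 genes the treated and control libraries are interleaved. HOXB3 was 1.03 and 3.24 against 1.96 and 2.64 (0.09 ± 0.49). Adjusted p ran from 0.820 to 0.986 in edgeR, and 0 of 5 were called, against 2.24% of all tested genes, with 0 at an unadjusted p under 0.05. DESeq2 called 0 of the 4 members it gave an adjusted p. Summed by cluster, HOXA was 7.08 and 11.3 CPM with DMSO and 8.90 and 11.7 with dTAGV-1, HOXB 8.41 and 13.1 against 9.97 and 12.6, HOXC 17.6 and 19.1 against 18.9 and 23.3, and HOXD 0.590 and 0.704 against 0.712 and 0.622. By position, anterior genes were 15.5 and 24.4 against 18.7 and 24.1, central genes 17.7 and 19.4 against 19.0 and 23.8, and posterior genes 0.443 and 0.422 against 0.712 and 0.311. The limit on positions stated above applies here too. Neural progenitor markers summed to 661 to 712 CPM with DMSO and 776 to 854 with dTAGV-1, with 0 of 8 called. Neuronal markers summed to 2844 to 3027 and 2630 to 2679, with 1 of 14 called lower, and cardiomyocyte markers to 71.3 to 77.0 and 37.5 to 45.2, with 1 of 14 called lower. Fibroblast and smooth muscle markers (321 to 337 against 286 to 315) and endothelium and endoderm markers (7.32 to 7.53 against 6.05 to 6.69) were also apart, with 0 called of 11 and of 9. The part of these differences in the HOX values was not tested.

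The difference of the drug effects (neurons minus cardiomyocytes) was also tested. It was -0.48 ± 0.31 for HOXB2 (adjusted p = 0.769), -0.48 ± 0.54 for HOXB3 (0.908) and 0.76 ± 0.69 for HOXC4 (0.874, edgeR), and 0.601% of all tested genes were called. No difference in drug effect between the cell types was called for these 3 genes.

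**Figure D4:**
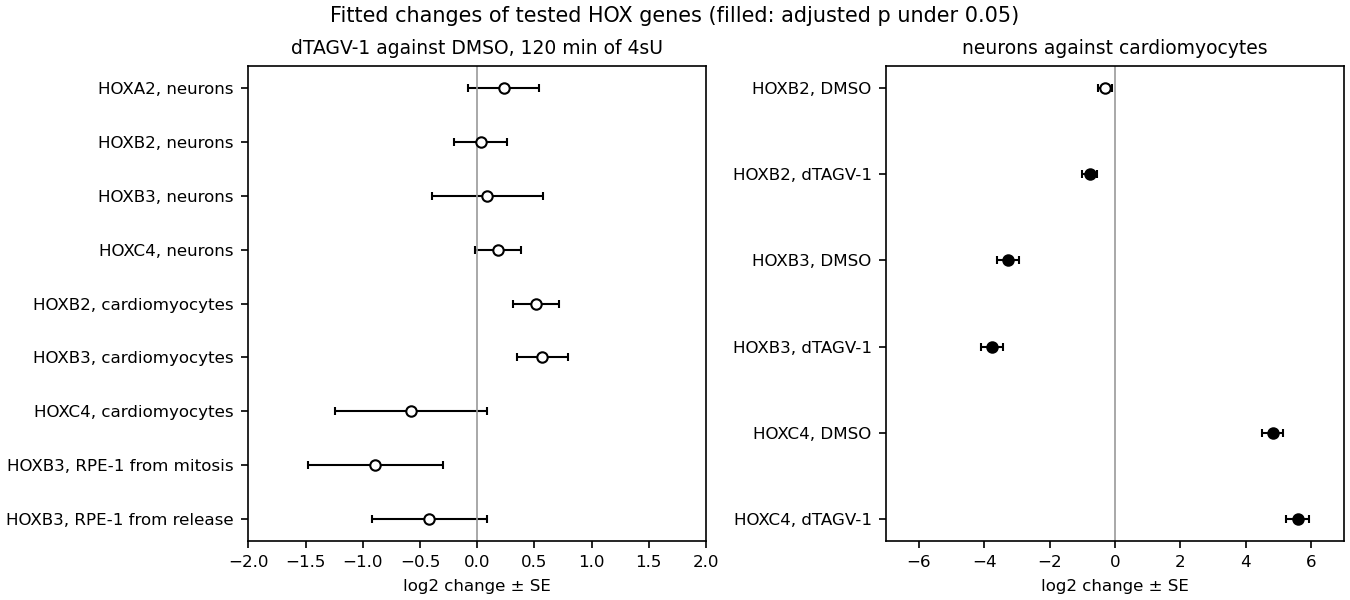
Fitted log2 changes with standard errors. On the left, dTAGV-1 against DMSO with 120 min of 4sU, none called. On the right, neurons against cardiomyocytes by arm; filled points have an adjusted p under 0.05.

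In RPE-1 only HOXB3 in the long-label libraries had counts for a test. HOXB3 had 8, 13 and 3 converted reads with DMSO from mitosis (0.574, 0.917 and 0.252 CPM) and 5, 6 and 1 with dTAGV-1 (0.331, 0.437 and 0.150). In the release series it had 10, 31 and 5 (0.776, 0.877 and 0.306 CPM) and 5, 6 and 10 (0.326, 0.650 and 0.671). Both pairs of arms overlap. The log2 change was -0.89 ± 0.59 from mitosis (adjusted p = 0.577) and -0.42 ± 0.50 from release (adjusted p = 1.00, edgeR), with 0 of 1 tested member called in each, and 2.46% and 0.718% of all tested genes. The unadjusted p was 0.155 and 0.416. With no filter edgeR tested 13 members in each series and called 0, and DESeq2 gave no member an adjusted p there, so it could call none. The difference between the series was -0.47 ± 0.78, and 0 genes were called for it. With all reads HOXB3 changed by -0.01 and 0.03.

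With the short label 0 HOX genes passed the filter in the fits of 0 to 120 min, 4 to 8 h or release, so 0 of 27 were called, where 1.27% (mitosis, 30 to 120 min), 19.8% (4 to 8 h) and 2.1% (release) of tested genes were. With no filter on low counts edgeR tested 20, 6 and 12 members and called 0, with 0 at an unadjusted p under 0.05. DESeq2 fitted the same numbers of members but gave none an adjusted p, so it could call none. Among DMSO libraries from 0 to 120 min, where 27.8% of tested genes were called, 0 HOX genes were tested. Without the 4 libraries that stood apart, 0 HOX genes were tested from 0 to 120 min.

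HOXB3 values by time are given as a description. With DMSO its converted level was 0.205 ± 0.0402 CPM (SD, n = 2) at 4 h, 1.02 ± 0.133 at 6 h and 1.24 ± 0.0802 at 8 h, and 0.135 to 0.611 CPM on average from 0 to 120 min. With dTAGV-1 it was 0.312 ± 0.0746 at 4 h, 0.474 ± 0.283 at 6 h and 0.568 ± 0.495 at 8 h. Treated libraries lay below both controls at 6 h and 8 h and above both at 4 h, on 1 to 8 reads each. With 2 libraries per arm this can arise by order alone, and its share over all genes is not given here. The tests at 6 h, 8 h and 4 h called 7.09%, 8.15% and 5.4% of all tested genes, which is another measure. In all reads the treated libraries again lay below both controls at 6 h and 8 h. The fit of all reads over 4 to 8 h gave a log2 change of -0.55 (unadjusted p = 0.0401, adjusted p = 0.169, edgeR), with HOXB3 and HOXB7 tested and neither called. Over all 14 pairs of groups in RPE-1, the treated mean of HOXB3 was below the control mean in 9. In converted reads all treated libraries lay below all controls in 2 of the 14 pairs (6 h and 8 h) and above them in 1 (4 h). These are the pairs with 2 libraries per arm, to which the limit above applies. In no pair with more libraries were the arms apart.

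**Figure D5:**
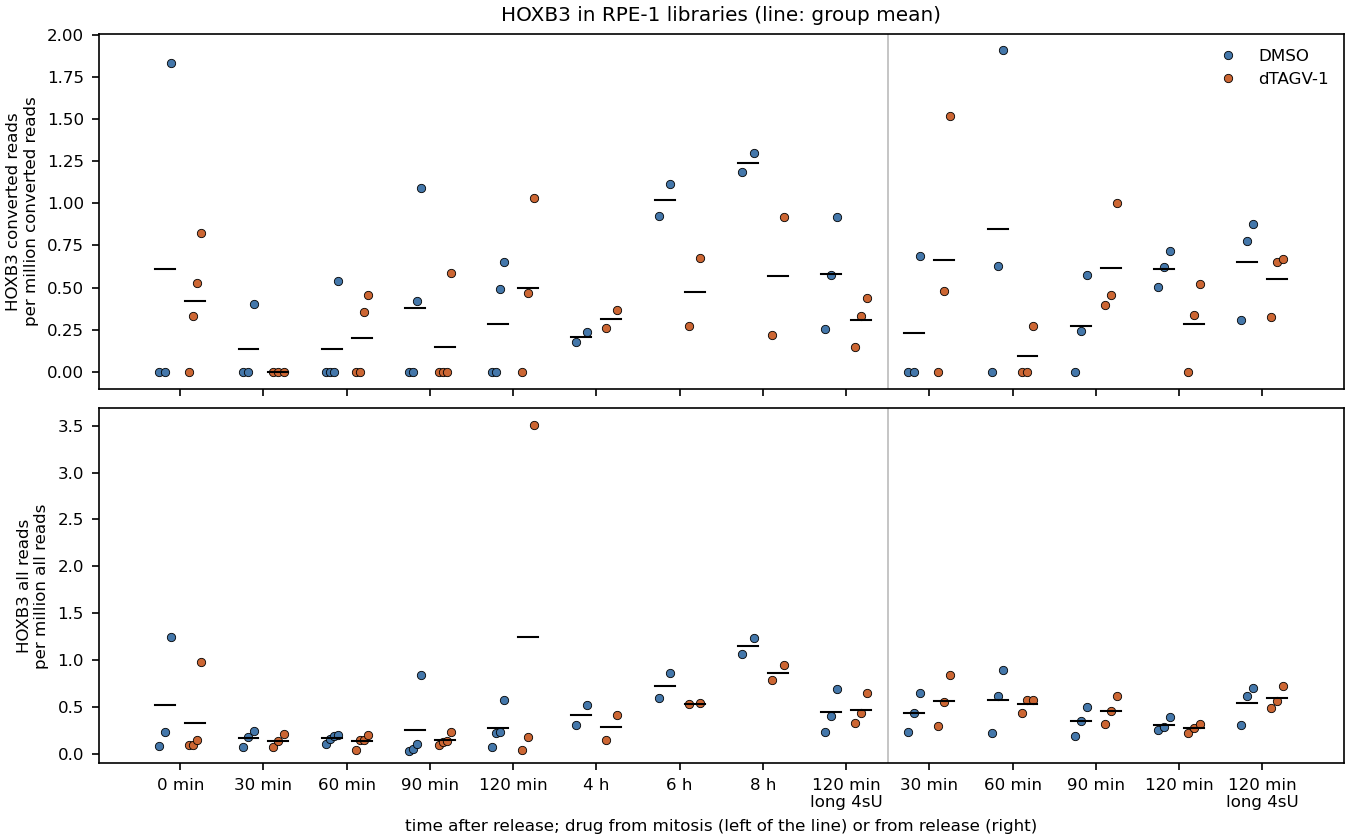
HOXB3 in CPM of converted reads (top) and of all reads (bottom) in each RPE-1 library, by time after release; points right of the grey line are the release series and lines are group means. Treated values lie below both controls at 6 h and 8 h in both panels and above both at 4 h in the top panel. In all reads 1 treated library at 120 min reads 3.51.

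Genes that act with or upstream of HOX genes were followed in lists chosen with earlier results known. The Polycomb list holds complex subunits and also removers of the Polycomb histone mark. The counts below stand beside 4.83% of all tested genes called with dTAGV-1 in cardiomyocytes and 2.24% in neurons. In cardiomyocytes the partners of HOX proteins MEIS1 (log2 0.53 ± 0.09, adjusted p = 0.00418) and MEIS2 (0.45 ± 0.08, adjusted p = 0.00738) rose, 2 of 10 tested partners, while PBX genes were not called. Among 16 retinoid genes 3 changed, with CYP26A1, which breaks down retinoic acid, higher (2.04 ± 0.34, adjusted p = 0.00533), and ALDH1A1, which makes it, lower (-0.89 ± 0.19, adjusted p = 0.0231, edgeR). RDH10, which also acts in its synthesis, fell by 1.00 ± 0.15 (adjusted p = 0.00291, edgeR). PCGF5, a Polycomb subunit, fell (-0.93 ± 0.11) and BCOR rose (0.32 ± 0.08), 2 of 32 Polycomb genes, and ASH2L fell (-0.45 ± 0.09), 1 of 19 Trithorax genes, shares near that of all genes. GDF11, a ligand that advances HOX patterns, rose (0.52 ± 0.10, adjusted p = 0.0153), 1 of 5 tested upstream genes. In neurons the Polycomb gene PCGF5 fell (-0.49 ± 0.11, adjusted p = 0.0360, edgeR), 1 of 32. Of the upstream genes 1 of 5 was lower there, and 0 of 10 partners, 0 of 16 retinoid and 0 of 19 Trithorax genes were called.

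The protein-coding genes beside the clusters were not called with dTAGV-1 in either cell type (0 of 26, edgeR) or with the long label in RPE-1 (0 of 21). The median log2 change was 0.0075 in cardiomyocytes and -0.0016 in neurons, beside 0.011 and 0.0011 over all tested genes. In RPE-1 NFE2L2, near HOXD, rose in the mitosis series (0.41 ± 0.11), over 4 to 8 h (0.42 ± 0.07) and in the release series (0.23 ± 0.06), and CALCOCO1, near HOXC, rose over 4 to 8 h (0.72 ± 0.14), 2 of 22. JARID2, a Polycomb subunit, fell with dTAGV-1 in the mitosis series (-0.88 ± 0.12), over 4 to 8 h (-0.81 ± 0.08), in the release series (-0.55 ± 0.12) and with the long label (-1.81 ± 0.21 and -1.03 ± 0.20). MEIS2 rose over 4 to 8 h (0.68 ± 0.07) and in the release series (0.47 ± 0.09), and PBX3 rose over 4 to 8 h (0.73 ± 0.08), 2 of 7 partners. Over 4 to 8 h, where 19.8% of all tested genes were called, 4 Polycomb genes were lower and 4 higher of 32, 1 Trithorax gene was lower and 2 higher of 19, and 3 retinoid genes were lower and 1 higher of 11. JARID2 was the single Polycomb gene called in the other fits named here, of 28 to 32 tested.

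Between the cell types with DMSO, where 53.7% of all tested genes were called, 8 flanking genes were higher and 8 lower in neurons, of 26. Retinoid genes were 9 higher and 2 lower of 16, among them CRABP1 (7.73 ± 0.22) and ALDH1A1 (-4.61 ± 0.29). On the Polycomb list 16 genes were higher and 4 lower of 32. Among them were KDM6A (-2.67 ± 0.08), a remover of the Polycomb histone mark, and CBX2 (1.76 ± 0.15), a subunit. Of 10 partners 7 were higher, of 19 Trithorax genes 4 were higher and 3 lower, and of 5 upstream genes 3 were higher and 1 lower. Among the upstream genes, GBX2 (4.32 ± 0.48) was higher in neurons, and CDX2, which switches on posterior HOX genes, had 90 converted reads in cardiomyocytes and 0 in neurons.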

How the data were processed

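Groups were taken from titles and treatment labels. The deposited files give, per the file headers, counts per gene of reads with a T-to-C conversion and counts of all reads, and a conversion rate, a fraction between converted and covered T positions that was not used. Per the submitters' processing notes, HISAT, Picard and HTSeq were used on hg38, with no versions or options given. Genes missing from a file were taken as 0. Of 49186 genes, 282 (Y chromosome genes and those near the X inactivation centre) were not analysed here.

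Converted counts were tested with edgeR 4.0.16 (R 4.3.3), quasi-likelihood, TMM scaling, filterByExpr at a minimum count of 10 and total of 15, two-sided, with Benjamini-Hochberg adjustment over all tested genes at 0.05. DESeq2 1.42.0 and limma 3.58.1 were also used, with Python 3.11.15, pandas 2.3.3, numpy 2.4.6, scipy 1.17.1 and matplotlib 3.10.9. CPM (reads per 1e6 reads) uses converted reads and no TMM, unless all reads are named. The fit was checked on simulated data. The comparisons of the 8 stem-cell-derived libraries share 1 estimate of spread, as do the long-label libraries.

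The HOX members, the gene lists and the comparisons were chosen with earlier results of these data known. Every called HOX member is named, with the highest tested member of each cluster where under 3 pass, the highest member per cluster and cell type for levels, and up to 3 called members of each other list by size of change. HOXA3, HOXA13 and HOXB7 were singled out after their values were seen. Equal replicate numbers counted as pairs where at least 3 pairs existed and each correlated by over 0.1. This held, from the data alone, at 0 min of the mitosis series (0.194 to 0.564), for its 120 min label (0.152 to 0.581) and, in the release series, at 120 min (0.239 to 0.423). Alternatives were other scalings, tests and filters, all reads, a replicate block, single comparisons alone and libraries left out. Single-gene values of 1 HOX member and 1 list gene are not reported here.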

Additional observations from a re-analysis of the deposited data

Results flagged for a closer look

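In 6 groups of 4 RPE-1 libraries the summed HOX level was set against the other libraries of the group, in converted and in all reads, 12 checks in all. A library far from the others was found in 2, both in all reads, and chance gives about 1 in 20 such checks. DMSO replicate 2 at 90 min of the mitosis series read 3.60 HOX CPM of all reads, where the nearest other library read 0.461 and the lowest 0.150. Replicate 4 of dTAGV-1 at 0 min of that series read 6.68, where the nearest read 0.325 and the lowest 0.159. Both are among the 4 libraries that list over 38000 genes.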

How the results depend on the processing

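Another 40 alternatives for the counts of HOX members called, all in RPE-1, gave no member an adjusted p and have no value. They include the fit without the 4 libraries that stood apart. Of those with a value, 42 of 45 left the count within 1.5 times the main one. In the dTAGV-1 comparisons the main count was 0 on 1 or 5 tested members. There, within 1.5 times only means that 0 stayed 0, which is no measure of stability. The exceptions were the fit with no filter on low counts, which called 1 member with dTAGV-1 in cardiomyocytes (HOXA3, lower) and 7 between neurons and cardiomyocytes (4 lower, 3 higher), and a replicate block with crossed numbers, chosen after seeing the data because the cardiomyocyte pairs correlated at -0.245, which called 1 member there (HOXB3, 0.57, adjusted p = 0.0106) and moved the count of all called genes from 900 to 2089. With the replicate number as a block, which does not pair these libraries by the rule used, 0 HOX members were called in cardiomyocytes (HOXB2 adjusted p = 0.303, HOXB3 0.327) and 0 in neurons, and 3 between the types, where the main fit called 4. For HOXB3 with the long label, where the mitosis series was paired, the block gave -0.97 (adjusted p = 0.382) from mitosis and -0.29 (0.953) from release, and changed no other call. Over the settings other than the crossed block, the adjusted p in cardiomyocytes ran from 0.220 to 0.666 for HOXB2 and from 0.0787 to 0.493 for HOXB3. Single-gene log2 changes ran from 0.25 to 0.76 for HOXB2 and from 0.23 to 0.87 for HOXB3 there, and from -0.93 to 0.03 for HOXB3 in the release series. Of 152 single-gene alternatives 10 turned direction, none of a called gene. Leaving out a replicate of the stem-cell-derived libraries leaves no residual degrees of freedom, so those values have no test. Among all genes, the counts called moved by over 1.5 times: with the long label from mitosis 407 became 66 with all reads and 833 with the block, from release 119 became 2 without replicate 2 and 294 with no filter, and in neurons 417 became 187 with the block and 1214 alone. In the mitosis series 180 became 51 with all reads and 359 with no filter, in the release series 293 became 64 with totals of all reads and 497 with the block, among DMSO libraries 3946 became 2119 alone, and in cardiomyocytes 900 became 291 alone and 1730 with no filter. Few reads limit all types: 24 of 27 members had under 10 converted reads in RPE-1, 21 in cardiomyocytes and 22 in neurons, on 374, 33.3 and 25.9 M converted reads in all.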

Other observations

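Other genes in and beside the clusters were looked up after their values had been seen, and those given here lie beside them. FLJ12825, beside HOXC genes, had 903 converted reads in neurons and 9 in cardiomyocytes, a log2 difference of 6.27 ± 0.36 with DMSO. EVX2, a homeobox gene at the posterior end of HOXD, had 161 converted reads in neurons and 20 in cardiomyocytes, and its difference was 2.86 ± 0.43 (adjusted p = 0.000158, edgeR). With dTAGV-1 EVX2 was not called in cardiomyocytes (-2.74 ± 0.95, adjusted p = 0.154) or in neurons (log2 -0.72).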
